A study of Mus musculus with 2 samples.

Results

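Ly6c2 monocytes with low C1q are CD45+ cells of the tumor that carried transcripts of the classical monocyte genes Ly6c2, Plac8 and Chil3 and few of complement C1q, which tumor macrophages express. They were selected on measured values. A cell was a member when its barcode had at least 200 genes and at most 10% mitochondrial unique molecular identifiers (UMIs, the counted RNA molecules), at least 5 UMIs of Ly6c2, Plac8 and Chil3 together, at least 5 of Lyz2, fewer than 10 of C1qa, C1qb and C1qc together, fewer than 20 of S100a8 and S100a9 together and none of Cd3d, Cd3e or Cd3g. By this rule 701 of 19950 kept cells were Ly6c2 monocytes. The MWA group held 320 of them among 10037 kept cells, and the MWA plus TIGIT group held 381 among 9913.

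C57BL/6 mice carried MC38 tumors, a mouse colon cancer line, on both flanks, and in both groups the right tumor was treated by microwave ablation (MWA), which destroys tissue by heat, when it measured about 300 mm3. The MWA plus TIGIT group also received an antibody that blocks TIGIT, an inhibitory receptor of T and NK cells, given into the peritoneum 3 times, 3 days apart, from day 1 after ablation. In the study's tumor growth experiment the MWA group was given an isotype control antibody. The treatment label of the MWA library names MWA alone. On day 8 the left tumor, which had not been ablated, was taken, and its CD45+ cells (leukocytes) were sorted and sequenced with a droplet method that counts transcripts by UMI. Each group was 1 library, with the number of pooled mice not stated, so a difference between the groups cannot be told apart from a difference between 2 libraries, and tumors of mice without ablation were not analysed here.

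Classical monocytes leave the bone marrow by the chemokine receptor CCR2, circulate in the blood and enter inflamed tissue and tumors, where they can become macrophages or dendritic cells. They carry Ly6C at the surface, make antimicrobial and clotting proteins, and respond to interferons with a set of antiviral genes. As they become macrophages they lose the monocyte genes and gain C1q, Apoe and MHC class II. Non-classical monocytes, which patrol the vessel wall and depend on the nuclear receptor Nr4a1, hold little Ly6C.

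The libraries held 10217 barcodes with 66152465 UMIs and 10190 barcodes with 78751205 UMIs. The second was deeper in the monocytes as well: a monocyte had a median of 4928 UMIs and 1613.5 genes in the MWA group and 6384 UMIs and 1928 genes with TIGIT blockade, and the summed UMIs were 1627640 and 2539244. The libraries shared 37 barcodes. None was a monocyte in both. For a level, the UMIs of a class were summed over its cells and divided by their total, as counts per 10 to the power of 6 (CPM), with 95% exact Poisson intervals, and ratios between classes or libraries with exact conditional binomial intervals. All intervals cover counting error only. There is no test between groups.

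The genes of the gate showed how the members were chosen and are given as a description. In the MWA group 303 of 320 monocytes held Plac8, 238 held Ly6c2 and 209 held Chil3, and 149 held all 3. In the MWA plus TIGIT group these were 351, 293 and 271 of 381, and 192 held all 3. Cells with no Ly6c2 UMI numbered 82 and 88, and 31 cells in each library entered by Plac8 alone. The summed UMIs of the 3 genes ranged from 5 to 104 with a median of 24 in the MWA group and from 5 to 202 with a median of 34 in the other. Just inside the limit, at 5 or 6 UMIs, lay 33 and 31 cells, and just outside, at 3 or 4 UMIs, lay 40 and 39. The median C1q sum was 1 in both libraries. At 8 or 9 C1q UMIs lay 7 and 5 cells, and at 10 or 11 lay 4 and 10. Ly6c2 (chromosome 15, 75108158 to 75111970, minus strand, GRCm38) has the close relative Ly6c1 nearby at 75044018 to 75048830, which was counted with 0 and 1 UMI against 1446 and 2677 for Ly6c2. The reads that fit both copies are uncertain.

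The share of kept cells that were Ly6c2 monocytes was 3.19% (95% exact binomial interval 2.85 to 3.55) in the MWA group and 3.84% (3.47 to 4.24) in the MWA plus TIGIT group. The difference was 0.66 percentage points (0.14 to 1.17). Among all cells of the monocyte to macrophage range (monocytes, cells with both gene sets and C1q-high macrophages) the shares were 7.83% and 8.34%, a difference of 0.51 points with an interval from −0.66 to 1.67. Intermediates, which met the monocyte limit but had at least 10 C1q UMIs, numbered 137 and 258. As a share of monocytes and intermediates together, the low-C1q monocytes were 70.0% and 59.6%, a difference of −10.4 points (−16.1 to −4.54). The limits were set on raw UMIs and the second library was deeper, and the part of depth in this difference was not tested. For the share of kept cells, the gate after thinning every barcode to 3000 UMIs gave 3.52% and 4.11%, a difference of 0.59 points, and the gate on UMIs scaled to equal depth gave 3.85% and 4.17%, a difference of 0.32 points. Among barcodes with at most 5000 UMIs the difference in the share of kept cells had the opposite sign, at −1.61 points, and among those with more it was 2.16 points.

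The label was checked on markers that the rule did not use. Hp, the hemoglobin scavenger haptoglobin, was at 341 CPM in monocytes and at 0.98 CPM in C1q-high macrophages of the MWA group, and at 324 and 1.29 CPM in the MWA plus TIGIT group. With cells thinned to 2000 UMIs each, 39.1% and 32.7% of monocytes held an Hp UMI, against 0.0613% and 0.121% of T cells, whose median depths were 3445 and 3663.5 UMIs. Neutrophils held more Hp than the monocytes, at 951 and 643 CPM. Ccr2, the receptor by which monocytes are recruited, was at 816 CPM in monocytes, 609 in intermediates and 287 in macrophages of the MWA group, and at 805, 641 and 273 CPM in the other. The order of the 3 classes was the same in both libraries. The matrix proteoglycan Vcan and the membrane protein Ifitm6 followed the same order, with 108 and 155 CPM in MWA monocytes and 1.88 and 2.06 CPM in MWA macrophages. Neutrophils had more Ifitm6, at 449 and 297 CPM, but less Ccr2, at 79.3 and 139 CPM, and less Vcan, at 0 and 39.6 CPM. F13a1, a clotting factor subunit, did so in the MWA group, at 322, 208 and 179 CPM, but not in the MWA plus TIGIT group, at 241, 182 and 239 CPM. Some other listed classical markers did not follow the order in either library. Fn1 was at 1532, 1981 and 1865 CPM in monocytes, intermediates and macrophages of the MWA group. With TIGIT blockade it was at 1273, 2187 and 2038 CPM. Ly6a was higher in intermediates, at 281 and 301 CPM, than in monocytes, at 113 and 213 CPM. Itgam differed little, at 325, 357 and 326 CPM and at 336, 368 and 354 CPM. The 22 classical markers outside the gate summed to 19716 CPM in monocytes, 12096 in intermediates and 7882 in macrophages of the MWA group, and to 18486, 11542 and 8019 CPM with TIGIT blockade. In neutrophils the sums were 15060 and 16319 CPM, below the monocytes but above the intermediates and macrophages of both libraries.

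**Figure D1:**
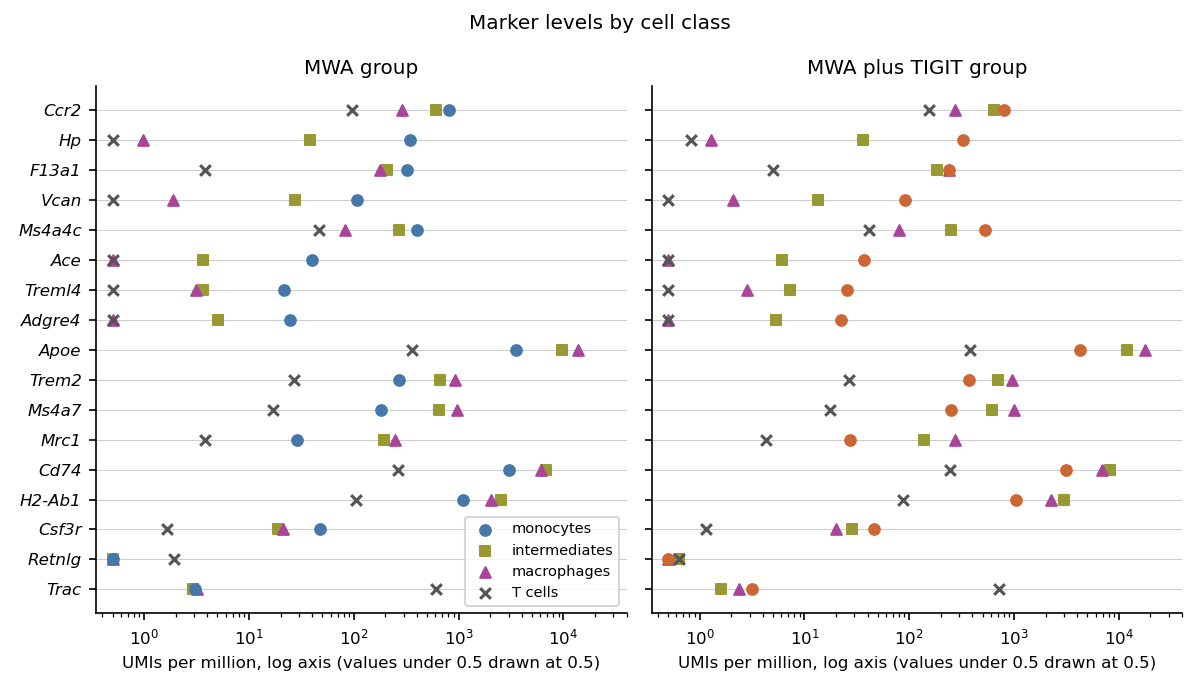
Levels of 17 marker genes in Ly6c2 monocytes (circles), intermediates (squares), macrophages (triangles) and T cells (crosses), in CPM on a log axis, for the MWA group (left) and the MWA plus TIGIT group (right). Of these 4 classes the monocytes were highest in Hp, Vcan, Ace and Adgre4 in both libraries and the macrophages in Apoe, Trem2, Ms4a7 and Mrc1, while neutrophils, which had more Hp, are not drawn.

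Of 4990 genes measured in monocytes or macrophages, 192 (3.85%) were at least 2-fold higher in monocytes in both libraries and 218 (4.37%) at least 2-fold lower, and since C1q divided the classes these counts are a description. Beside Hp, Ifitm6 and Vcan, the genes that stood furthest above the macrophages were Slpi, a protease inhibitor of neutrophils and mucosa (324 and 219 CPM against 4.89 and 5.63), the collagenase Mmp8 (54.7 and 38.6 against 0.77 and 1.06), the chemokine Cxcl3 (70.7 and 124 against 2.52 and 1.75), Ly6i, Gsr and Mcemp1. Single cells held 35.2% of the Slpi UMIs of MWA monocytes and 53.9% and 34.4% of the Cxcl3 UMIs of the 2 libraries. Neutrophils had more Mmp8, at 304 and 247 CPM, and more Cxcl3, at 793 and 851 CPM. Gsr was at 581 and 445 CPM in neutrophils and at 141 and 117 CPM in monocytes. Furthest below were genes of tissue macrophages, among them the folate receptor Folr2 (4.30 and 3.94 CPM against 117 and 171), the chemokine Ccl8, Cbr2, Gas6, a bridge to dying cells, and the tetraspanin Cd81 (22.1 and 27.6 against 389 and 425). Against the intermediates fewer genes differed by this rule, 62 (1.26%) higher and 109 (2.21%) lower of 4921. Hp, Mmp8, Slpi, Ifitm6, Ace and Gsr were among the 10 furthest above, and the proliferation genes Mki67, Birc5 and Pclaf among the 10 furthest below. Mki67 was at 7.99 and 5.51 CPM in monocytes and at 72.0 and 50.9 CPM in intermediates, and 46.2% of its 13 UMIs in MWA monocytes came from a single cell. Against the neutrophils 739 (16.8%) of 4389 genes were higher in monocytes by this rule and 504 (11.5%) lower.

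Transcripts of other leukocytes were mostly low. The neutrophil granule genes Retnlg, Camp and Ngp had no UMI in any of 320 and 381 monocytes, which allows shares of cells with a UMI of up to 0.938% and 0.787%. Csf3r, which monocytes also express, was at 47.9 and 46.1 CPM against 727 and 1237 CPM in the cells gated as neutrophils. The 16 neutrophil markers outside the gate summed to 333 and 359 CPM in monocytes and to 19948 and 21624 CPM in neutrophils. The 15 T and NK cell markers summed to 290 and 341 CPM against 9404 and 12366 CPM in T cells. Genes of dendritic cells were at 154 and 129 CPM in sum. This was above the 55.3 and 77.6 CPM of intermediates and the 45.8 and 40.1 CPM of macrophages. Among them Ccr7 had 4 and 68 UMIs, with 98.5% of the latter in 2 cells. Genes of plasmacytoid dendritic cells were at 427 and 598 CPM, of which Bst2, also an interferon gene, made 334 and 473. Genes of B cells were at 49.2 and 56.7 CPM. Krt8 and Krt18 of tumor cells, Ms4a1 of B cells, Mcpt8 of basophils and Alas2 of red cell precursors were at 0 in both libraries.

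Cells with no Ly6c2 UMI differed from those with at least 1. Since Ly6c2 took part in the selection and these cells entered by Plac8 and Chil3, the values are a description. Hp was at 130 CPM in the 82 cells without and at 410 CPM in the 238 cells with Ly6c2 of the MWA group, and at 113 and 383 CPM with TIGIT blockade. Of 14 listed genes of non-classical monocytes, 11 were higher without Ly6c2 in both libraries, 2 were lower in both and 1 differed in direction. The share of all genes that were higher without Ly6c2 is not given, so the count has no background to be read against. Some of the 11 rested on few UMIs. In the MWA group Fabp4 and Cd300e each had 1 UMI without and 2 with Ly6c2, Eno3 11 and 8, and Pglyrp1 7 and 14. Adgre4, an adhesion receptor, was at 49.8 against 16.3 CPM and at 45.5 against 16.1 CPM, and Ace, the angiotensin-converting enzyme, at 49.8 against 36.7 CPM and at 76.4 against 26.6 CPM. The difference was small for Nr4a1, at 299 against 286 CPM and at 306 against 269 CPM. Spp1 (osteopontin) and Arg1 (arginase) were also higher without Ly6c2, Spp1 at 1971 against 813 CPM and 1928 against 774 CPM, and Arg1 at 1104 against 519 CPM and 1153 against 646 CPM. Both are known from tumor macrophages. Here Spp1 was higher in all monocytes together than in C1q-high macrophages, at 1099 and 1024 against 510 and 616 CPM. Arg1 was lower, at 663 and 756 against 1208 and 1913 CPM.

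Within the gate, Hp was lower in cells with more C1q, and Ccr2 was not lower throughout. From 0 to 7–9 C1q UMIs, Hp went from 419 through 323 and 307 to 183 CPM in the MWA group and from 413 through 339 and 171 to 111 CPM with TIGIT blockade. The highest bin held 7 and 11 cells. These bins used raw C1q UMIs, so they can also sort cells by depth. Above 8000 UMIs per cell, Hp was at 96.3 CPM (MWA) and 196 CPM (MWA plus TIGIT). Between 5000 and 8000 UMIs it was at 388 and 406 CPM. With TIGIT blockade, cells at 8 or 9 C1q UMIs were deep, at a median of 10867 UMIs (6384 for all monocytes). In the MWA group they were not, at 4783 UMIs (4928 for all). The part of depth in the Hp values was not tested. Ccr2 stayed between 790 and 1189 CPM and between 714 and 862 CPM, and Apoe between 2361 and 4757 CPM and between 3924 and 5358 CPM, below the 9769 and 11980 CPM of the intermediates. No bin reached the intermediates in Apoe, in either library.

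The comparison of the MWA plus TIGIT group with the MWA group asked whether monocytes of the tumor that was not ablated differed after TIGIT blockade. Of 4774 genes measured (a mean of at least 20 CPM over both libraries and at least 50 UMIs in all), 165 (3.46%) were at least 1.5-fold higher in the MWA plus TIGIT group and 81 (1.70%) at least 1.5-fold lower. At 2-fold these were 15 and 11. The median log2 ratio of all measured genes was 0.05. The counts depended on the scaling: with size factors from the median ratio 128 genes were higher and 101 lower, so that 55.9% of the genes past 1.5-fold were higher in place of 67.1%.

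Genes that type I interferon induces formed the list with the highest median ratio among those with at least 6 measured members. Of 34 listed genes 32 were in the files and 30 were measured. Of these, 13 were at least 1.5-fold higher in the MWA plus TIGIT group and none at least 1.5-fold lower, against 3.46% and 1.70% of all measured genes. The median log2 ratio was 0.52, 29 of 30 lay above 0, and for 22 the counting interval lay above 0. Of all measured genes 57.3% lay above 0, and the interval lay above 0 for 10.3% and below it for 7.33%. Isg15, a ubiquitin-like protein (chromosome 4, 156199424 to 156200818, minus strand), had 312 UMIs (192 CPM) in MWA monocytes and 1021 UMIs (402 CPM) in MWA plus TIGIT monocytes, a ratio of 2.10 (log2 1.07, 95% interval 0.88 to 1.26). Ifit1, an RNA-binding antiviral protein, was at 37.5 and 94.1 CPM (log2 1.33, 0.92 to 1.76). Cmpk2, a mitochondrial nucleotide kinase encoded beside Rsad2, was at 20.9 and 53.6 CPM (log2 1.36, 0.81 to 1.95). All 3 were more than 2-fold higher.

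Rsad2 (viperin, an antiviral enzyme) was at 190 and 336 CPM (log2 0.82, 0.63 to 1.01). Ifit3 was at 70.0 and 138 CPM (log2 0.98, 0.67 to 1.30), and Irf7, the transcription factor that drives further interferon production, at 182 and 288 CPM (log2 0.66, 0.46 to 0.86). The intervals of these genes did not overlap between the libraries. At the other end of the list, the RNA sensors Ddx58 (RIG-I) and Ifih1 (MDA5) had the lowest ratios, at 37.5 and 37.4 CPM (log2 −0.00, −0.48 to 0.49) and at 47.3 and 48.8 CPM (log2 0.05, −0.38 to 0.48). A difference in these 2 sensors was not detectable at this depth.

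**Figure D2:**
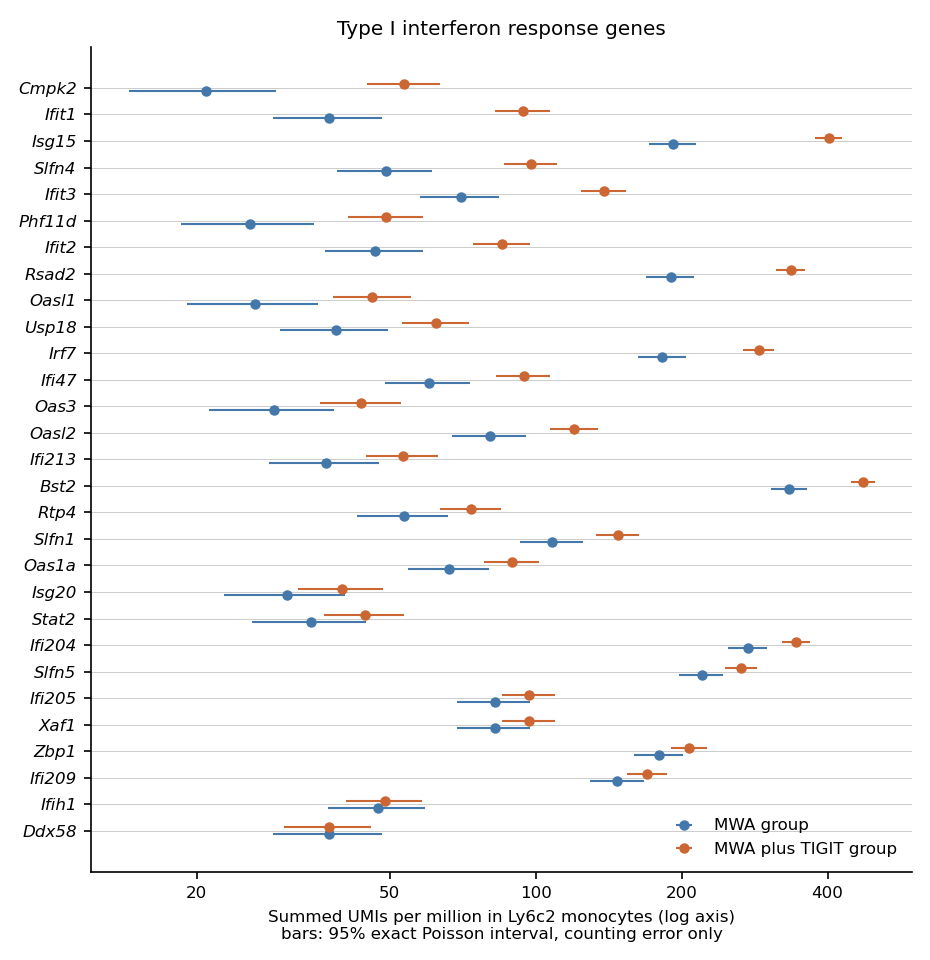
CPM (log axis) of 29 of the 30 measured type I interferon response genes in Ly6c2 monocytes of both groups, with 95% exact Poisson intervals and ordered by ratio. From Cmpk2, at 20.9 and 53.6, down to Irf7, at 182 and 288, the intervals of the groups lie apart, and at Ifih1 and Ddx58 they coincide.

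The interferon-stimulated response element, through which type I interferon induces genes, holds a pair of GAAA boxes. The motif GAAANNGAAA was searched on both strands in the 250 bases before each annotated start (RefSeq, GRCm38.p6). It was in 978 of 32851 windows (2.98%) and in a window of 167 of 3842 measured genes (4.35%). Of the 30 measured interferon genes, 25 had a window, and 11 of these (44.0%) held the motif, as did 8 of 15 genes induced by interferon-gamma (53.3%), 3 of 13 MHC class I genes and 0 of 4 MHC class II genes with a window. Since both interferon lists were made of known targets, the shares among them are a description. The windows of 4 genes with large ratios and of B2m, the light chain of MHC class I, are shown 5′ to 3′ on the strand of the gene, with matches in capitals, overlapping ones merged. In Isg15 there were 3 overlapping matches and the first base lay 78 bases before the start, in Ifit1 and Ifit3 there were 2 on the reverse strand, and in Rsad2 and B2m 1.
Isg15, chr4:156200819-156201068, minus strand: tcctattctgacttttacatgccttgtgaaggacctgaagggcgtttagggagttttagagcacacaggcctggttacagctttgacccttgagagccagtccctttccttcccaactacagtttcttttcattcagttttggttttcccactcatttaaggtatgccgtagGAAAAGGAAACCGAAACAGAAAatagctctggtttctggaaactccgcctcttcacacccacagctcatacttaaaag
Ifit1, chr19:34640639-34640888, plus strand: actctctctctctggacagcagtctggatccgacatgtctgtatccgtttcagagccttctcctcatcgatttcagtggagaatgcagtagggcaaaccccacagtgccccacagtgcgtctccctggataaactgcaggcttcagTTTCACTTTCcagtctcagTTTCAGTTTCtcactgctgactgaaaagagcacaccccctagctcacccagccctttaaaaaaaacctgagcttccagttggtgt
Ifit3, chr19:34583279-34583528, plus strand: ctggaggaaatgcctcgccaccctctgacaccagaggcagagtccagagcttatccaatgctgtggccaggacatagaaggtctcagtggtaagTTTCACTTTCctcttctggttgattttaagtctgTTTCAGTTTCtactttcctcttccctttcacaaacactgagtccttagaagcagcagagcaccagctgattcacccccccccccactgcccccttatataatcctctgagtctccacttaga
Rsad2, chr12:26456453-26456702, minus strand: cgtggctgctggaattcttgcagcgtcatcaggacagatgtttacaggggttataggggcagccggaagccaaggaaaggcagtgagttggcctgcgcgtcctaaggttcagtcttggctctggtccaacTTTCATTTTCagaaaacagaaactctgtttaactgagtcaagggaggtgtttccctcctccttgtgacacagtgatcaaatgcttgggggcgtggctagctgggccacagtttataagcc
B2m, chr2:122147437-122147686, plus strand: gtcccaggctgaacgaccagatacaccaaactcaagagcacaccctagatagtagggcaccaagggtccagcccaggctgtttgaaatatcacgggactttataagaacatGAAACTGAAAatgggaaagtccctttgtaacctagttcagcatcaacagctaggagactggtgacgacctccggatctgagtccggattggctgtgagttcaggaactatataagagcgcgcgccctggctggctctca

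No match was in the windows of Irf7 and Cmpk2, which were also higher, nor in those of H2-K1 and H2-D1. A match is a sequence of letters and not a measured site.

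The interferon genes were unevenly spread over the monocytes. With every cell thinned to 2000 UMIs, which left out 13 and 14 shallower cells, a monocyte held a median of 3 UMIs of these genes in the MWA group and 4 with TIGIT blockade. The highest cells held 92 and 101. Cells with at least 10 UMIs were 43 of 307 (14.0%, 10.3 to 18.4) and 85 of 367 (23.2%, 18.9 to 27.8), while cells with none were 6.84% and 9.81%. The 10% of cells with most UMIs held 48.5% and 50.9% of all. Rsad2 was concentrated in few cells, with UMIs in 39 of 320 and 60 of 381 monocytes and 31.1% and 14.6% of its UMIs in a single cell. The limit of 10 UMIs cuts a continuous range, with 75 and 81 cells at 5 to 9 UMIs. By the same measure 6.23% and 7.99% of macrophages, 15.4% and 13.2% of intermediates and 7.36% and 8.37% of T cells held at least 10 UMIs.

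**Figure D3:**
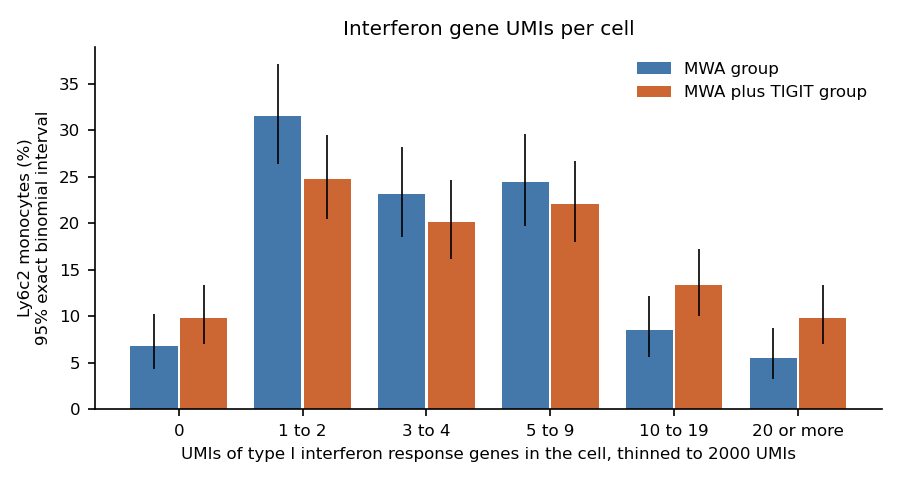
Share of Ly6c2 monocytes (%) by the number of UMIs of type I interferon response genes, after each cell was thinned to 2000 UMIs, with 95% exact binomial intervals, in the MWA group (307 cells) and the MWA plus TIGIT group (367 cells). At 1 to 2 UMIs the shares were 31.6% and 24.8%, and at 20 or more 5.54% and 9.81%.

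The difference also varied with the depth of the cell. In monocytes with up to 3000 UMIs (28 and 27 cells) the interferon genes summed to 4979 CPM in the MWA group and 3985 CPM with TIGIT blockade. Between 3000 and 5000 UMIs (143 and 59 cells) they were at 3534 and 3947 CPM, between 5000 and 8000 (132 and 201 cells) at 2795 and 4687 CPM, and above 8000 (17 and 94 cells) at 1167 and 4110 CPM. In the MWA group the level was thus lower in deeper cells, and in the MWA plus TIGIT group it was not. Among cells with at most 5000 UMIs the median log2 ratio was 0.03 over 23 measured members, and 4 were past 1.5-fold. Among cells with more it was 0.75 over 31 members, and 27 were past 1.5-fold. When the gate was applied after every barcode had been thinned to 3000 UMIs, the median was 0.51.

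**Figure D4:**
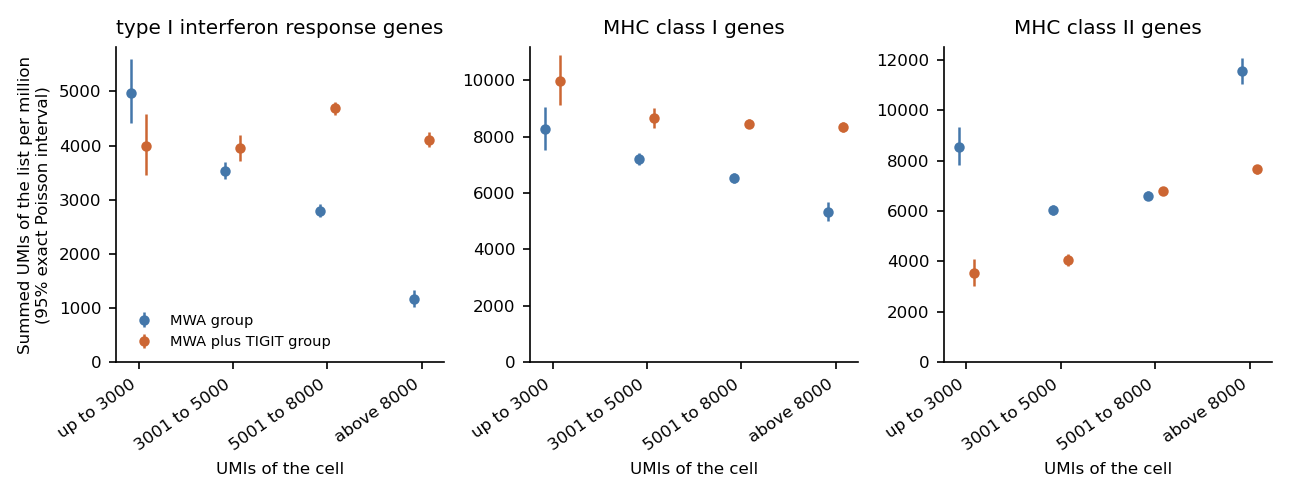
Summed CPM of type I interferon response genes, MHC class I genes and MHC class II genes in Ly6c2 monocytes of 4 depth ranges, by UMIs of the cell, with 95% exact Poisson intervals. The interferon genes were higher in the MWA plus TIGIT group in cells above 5000 UMIs (2795 and 4687 between 5000 and 8000), and the MHC class I genes in each range (8252 and 9962 at up to 3000, 5337 and 8332 above 8000).

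In the other classes the same genes gave smaller ratios. The median log2 ratio of the 30 members was −0.08 in intermediates and 0.14 in macrophages, and their summed levels were 2720 and 2581 CPM in intermediates and 1818 and 1954 CPM in macrophages, against 2967 and 4384 CPM in monocytes. Neutrophils had the highest sums, 6896 and 7007 CPM. Rsad2 was at log2 −0.82 in intermediates and 0.37 in macrophages. With 1 library in each group the difference between classes was not tested.

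Genes of antigen presentation by MHC class I were higher in the MWA plus TIGIT group, with small ratios in most members. Of 15 measured members 14 had a ratio above 1, for 10 the interval lay above it, and 2 were past 1.5-fold, against 57.3%, 10.3% and 3.46% of all measured genes. The median log2 ratio was 0.37. The heavy chain H2-K1 had 1151 and 2506 UMIs (707 and 987 CPM, log2 0.48, 0.38 to 0.58), H2-D1 1479 and 1916 CPM (log2 0.37, 0.30 to 0.44) and B2m 2760 and 3349 CPM (log2 0.28, 0.23 to 0.33). The non-classical H2-Q4 and H2-Q7 had the largest ratios, at 28.9 and 50.8 CPM and at 64.5 and 104 CPM (log2 0.82 and 0.68). Near-identical copies in this gene family can share reads, so single members are uncertain.

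These genes were more evenly spread over the monocytes than the interferon genes. H2-K1 had a UMI in 301 of 320 and 369 of 381 monocytes and B2m in 318 and 381. The 10% of cells with most UMIs of the list held 19.6% and 19.1% of them, against 48.5% and 50.9% for the interferon genes, after thinning to 2000 UMIs. Their sum was higher with TIGIT blockade in all 4 depth ranges, and the median over the list was 0.32 among cells with at most 5000 UMIs. The same direction was seen in the other classes, with sums of 7343 and 8102 CPM in intermediates, 7225 and 8055 CPM in macrophages and 9920 and 11147 CPM in T cells, and 6700 and 8454 CPM in monocytes.

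Among 17 measured genes induced by interferon-gamma, 3 were at least 1.5-fold higher and 1 lower, against 3.46% and 1.70% of all measured genes. The median log2 ratio was 0.34. Cd274 (PD-L1), the ligand of PD-1, was at 25.2 and 41.7 CPM (log2 0.73, 0.20 to 1.29), and the GTPases Igtp and Gbp3 were at 20.3 and 33.1 CPM and at 34.4 and 52.8 CPM. Ciita, the master regulator of MHC class II, and the feedback inhibitor Socs1 had the lowest ratios, at 49.8 and 32.3 CPM (log2 −0.62, −1.08 to −0.16) and at 46.7 and 31.9 CPM (log2 −0.55). MHC class II genes had small ratios in most members, with Ciita the only 1 of 7 past 1.5-fold. Of the 7, 1 lay above 0, and the interval lay below 0 for 3 and above it for 1. Of all measured genes these shares were 57.3%, 7.33% and 10.3%. H2-Ab1 was at 1103 and 1048 CPM and Cd74, the invariant chain, at 3004 and 3157 CPM, and the median log2 ratio over the 7 was −0.07. Among cells with at most 5000 UMIs that median was −0.61. By depth, the list summed to 8548 and 3542 CPM at up to 3000 UMIs and to 6043 and 4057 between 3000 and 5000. The sums were 6603 and 6775 CPM between 5000 and 8000 UMIs and 11546 and 7649 above 8000. Of the ligands of TIGIT, Pvr was at 18.4 and 23.2 CPM (log2 0.33, −0.32 to 1.02), and Nectin2 had UMIs in 0 of 320 and 3 of 381 monocytes.

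**Figure D5:**
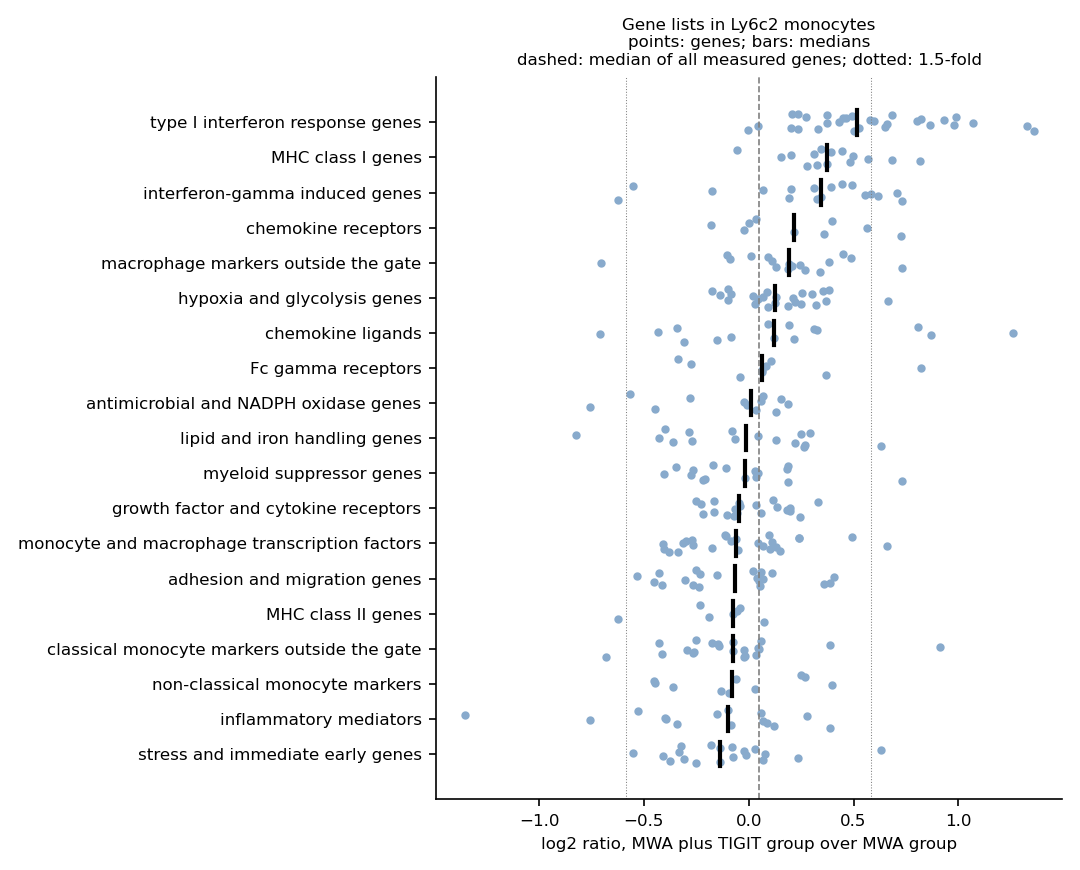
Log2 ratios between the groups (with TIGIT blockade over without) in Ly6c2 monocytes for 19 gene lists with at least 6 measured members. Points are genes, bars are list medians, the dashed line is the median of all measured genes (0.05) and dotted lines mark 1.5-fold. Type I interferon response genes (0.52) and MHC class I genes (0.37) have the highest medians and stress and immediate early genes (−0.14) the lowest.

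Chemokine ligands differed in both directions. Of 15 measured ligands 3 were past 1.5-fold higher and 1 lower, against 3.46% and 1.70% of all measured genes. The median log2 ratio was 0.12. Ccl7, a ligand of CCR2 (chromosome 11, 82045712 to 82047525), was at 162 and 387 CPM (log2 1.26, 1.06 to 1.46), while its neighbor Ccl2, the main ligand of CCR2, was at 1132 and 1018 CPM (log2 −0.15, −0.24 to −0.07). The Ccl7 difference lay in few cells: 59 and 64 monocytes held a UMI, and 2 cells held 45.4% of the UMIs in the MWA plus TIGIT group. Without the cell with most UMIs in each library the log2 ratio was 1.09, and in cells with at most 5000 UMIs 0.24. In those shallower cells Ccl2 was at log2 0.22. Ccl5 was at 127 and 232 CPM, with 31.4% of the MWA UMIs in a single cell, and its log2 ratio of 0.87 became −0.96 when the gate was applied after thinning to 3000 UMIs. Cxcl3 had UMIs in 15 and 9 monocytes, and its log2 ratio of 0.81 was 1.32 without the cell with most UMIs in each library. The shares of cells with a UMI, thinned to 2000 UMIs, were 12.7% and 11.2% for Ccl7 and 9.77% and 10.1% for Ccl5, with 3.25% and 1.96% of T cells for Ccl7. T cells held far more Ccl5 than the monocytes, at 3636 and 5520 CPM. Whether RNA of T cells had a part in the monocyte values of Ccl5 was not tested.

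Ccl6, a chemokine of the myeloid lineage, was at 552 and 338 CPM (log2 −0.71, −0.84 to −0.57), and its neighbor Ccl9 at 334 and 247 CPM (log2 −0.43). The neutrophil attractant Cxcl2 was at 1627 and 1283 CPM (log2 −0.34, −0.42 to −0.27). Among cells with at most 5000 UMIs its log2 ratio was 0.079. The T cell attractants Cxcl9 and Cxcl10 were at 212 and 242 CPM (log2 0.19, −0.00 to 0.39) and at 241 and 302 CPM (log2 0.32, 0.15 to 0.50), and Cxcl16 at 227 and 281 CPM (log2 0.31). These ratios depended on the depth of the cells: at most 5000 UMIs gave −1.61 for Cxcl9, −0.066 for Cxcl10 and −0.33 for Cxcl16, and over 5000 UMIs gave 1.23 for Cxcl9 and 1.01 for Cxcl10. Among receptors Ccr2 was level (log2 −0.02, −0.12 to 0.08). The complement receptor C3ar1, at 148 and 245 CPM (log2 0.73, 0.51 to 0.95), was the only 1 of 9 past 1.5-fold. Of all measured genes 3.46% were past 1.5-fold higher. Cx3cr1, the fractalkine receptor, was at 284 and 373 CPM (log2 0.40, 0.23 to 0.56).

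The monocyte markers themselves had small ratios in most members. Of 21 measured classical markers outside the gate 1 was past 1.5-fold higher and 1 lower, against 3.46% and 1.70% of all measured genes. The interval lay below 0 for 8 and above it for 2, against 7.33% and 10.3% of all, and the median log2 ratio was −0.07. Hp was at 341 and 324 CPM (log2 −0.07, −0.23 to 0.08) and Thbs1 at 507 and 528 CPM. Ly6a (Sca-1), itself induced by interferon, was at 113 and 213 CPM (log2 0.91, 0.67 to 1.16), but at log2 −0.89 among cells with at most 5000 UMIs. Cd177 was at 45.5 and 28.4 CPM (log2 −0.68, −1.17 to −0.19), F13a1 at 322 and 241 CPM (log2 −0.42) and the matrix protein Fn1 at 1532 and 1273 CPM (log2 −0.27). None of 10 measured non-classical markers was past 1.5-fold in either direction. Cd300e, which was below the limit for measured genes, had 3 and 21 UMIs. The 17 measured macrophage markers had a median log2 ratio of 0.19, and 1 was past 1.5-fold in each direction. Of the 17, 14 lay above 0, and the interval lay above 0 for 10 and below it for 2. Of all measured genes these shares were 57.3%, 10.3% and 7.33%. Trem2 was at 273 and 372 CPM and Apoe at 3536 and 4259 CPM. Apoe was also higher in macrophages of the MWA plus TIGIT group too (log2 0.35), and whether RNA released from those cells had a part in the monocyte value was not tested.

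Most receptor and effector genes were within 1.5-fold between the groups. Of all measured genes 3.46% were past 1.5-fold higher and 1.70% lower. Of 9 measured genes of the Fc gamma receptors and their signaling, Fcgr4, the activating receptor for IgG2, was past 1.5-fold, at 71.3 and 126 CPM (log2 0.82, 0.51 to 1.14), and Fcgr1 was at 311 and 402 CPM (log2 0.37). The signaling chain Fcer1g was at 3254 and 3159 CPM. Inflammatory mediators had 2 of 15 members past 1.5-fold lower and none higher. The interval lay below 0 for 7 of them and above it for none, against 7.33% and 10.3% of all measured genes. The acute-phase protein Saa3 was at 75.6 and 29.5 CPM (log2 −1.36, −1.79 to −0.93) and Lcn2, which binds bacterial siderophores, at 32.0 and 18.9 CPM, while Il1b was at 1357 and 1421 CPM (log2 0.07, −0.01 to 0.14). Tnf was at 52.8 and 36.6 CPM and Osm at 308 and 233 CPM (log2 −0.53 and −0.40). The NADPH oxidase subunits Cybb, Cyba, Ncf1 and Ncf4 lay between log2 0.03 and 0.19. Of 19 measured stress and immediate early genes, 11 had an interval below 0 and 2 above, against 7.33% and 10.3% of all measured genes, with a median log2 ratio of −0.14: Fosb was at 255 and 192 CPM and Jund at 610 and 488 CPM, and the heat shock gene Hsph1 was past 1.5-fold higher, at 26.4 and 41.0 CPM.

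The list of hypoxia and glycolysis genes had a median log2 ratio of 0.13 over 24 measured members, with Tpi1 at 529 and 689 CPM (log2 0.38, 0.26 to 0.50) and Pgam1 at 431 and 531 CPM, and Hk1 was past 1.5-fold at 19.7 and 31.1 CPM. Of the 24, 19 lay above 0, and the interval lay above 0 for 10 and below it for none. Of all measured genes these shares were 57.3%, 10.3% and 7.33%. Of its members that hypoxia induces, Hilpda, a lipid droplet protein, was at 157 and 202 CPM (log2 0.37, 0.15 to 0.59), the oxygen sensor Egln3 at 45.5 and 56.7 CPM (log2 0.32) and the growth factor Vegfa at 166 and 155 CPM (log2 −0.10), and the glucose transporter Slc2a1 had the lowest ratio of the list, at 130 and 115 CPM (log2 −0.17). Of 5 measured cycling genes none was past 1.5-fold, and Mki67 stayed under 10 CPM in monocytes of both libraries.

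The 12 genes with the highest ratios were led by Ctsk (cathepsin K, 3 and 113 UMIs), but 97.3% of its UMIs in the MWA plus TIGIT group came from 1 cell, and without the cell with most UMIs in each library the log2 ratio of 4.59 became −0.06. Gzma, a granzyme of killer lymphocytes and the lowest of all at 57.8 and 4.33 CPM, had 90.4% of its 94 UMIs of the MWA group in 1 cell. Without the cell with most UMIs in each library the log2 ratio of Gzma was −0.64 in place of −3.74, so both ratios rested on single cells. Next among the highest came Upp1, a uridine phosphorylase, at 20.3 and 55.9 CPM (log2 1.46, 0.91 to 2.06), found in 22 and 67 cells, then Cmpk2, Ifit1, Ccl7, Creb5, Olfml3, Lrg1, Crybg3, Cfb, Isg15 and Eif2ak1. Cfb, factor B of the alternative complement pathway, was at 36.2 and 76.4 CPM (log2 1.08, 0.65 to 1.52). Thinned to 2000 UMIs, cells with a UMI of Cfb were 3.91% and 14.4% of monocytes and 0.245% and 0.574% of T cells. After Gzma the lowest were the histone gene Hist1h2ap (37.0% of its MWA UMIs in 1 cell), Saa3, Id3, Erlec1, Gstp1, Taf7, Mmp12, Herc4, Ccpg1, Krt80 and Cyp51. Id3, an inhibitor of helix-loop-helix factors, was at 46.1 and 18.5 CPM (log2 −1.32, −1.87 to −0.77), Gstp1, a glutathione transferase, at 78.0 and 35.05 CPM (log2 −1.15) and Cyp51, an enzyme of cholesterol synthesis, at 70.7 and 37.0 CPM (log2 −0.93). Of the 246 genes past 1.5-fold, 8 had over 33.3% of the UMIs of a library in 1 cell.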

How the data were processed

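Single-cell RNA sequencing of sorted CD45+ tumor cells gave 1 library per group. The deposited matrices hold raw UMI counts per gene and barcode, which the authors made with Cell Ranger (4.0.0 in the file headers, 6.1.1 in the submitters' processing notes) against mm10. They were filtered to called cells and not normalized. Members, gene lists and alternatives were chosen with earlier results of these data known. Barcodes were gated on raw UMIs. Doublets were kept, and a simulated-doublet caller marked 8.03% and 7.93% of kept barcodes, whose removal left 318 and 376 monocytes. Genes at 0 UMIs in a class got no ratio. Intervals were 95% exact (binomial, Poisson or conditional binomial), since cells are not replicates. The interval of a difference of shares combined both exact intervals. The comparison classes used the gate genes: macrophages had at least 10 C1q UMIs and a monocyte sum below 5, neutrophils at least 20 S100a8 and S100a9 UMIs with a C1q sum below 10, and T cells at least 2 Cd3 UMIs with Lyz2 below 5. Named genes were the gate genes, the monocyte markers, the 12 highest and 12 lowest ratios (without mitochondrial, ribosomal protein, antigen receptor and unnamed genes), up to 4 members per list at its ends, 10 chemokine and ligand genes the study names, and the 10 furthest genes against each class. Further members of lists, such as H2-K1, B2m, Rsad2 and Il1b, were named after their values were seen. Positions are GENCODE vM21 on GRCm38. The scripts were tested on simulated data and used Python 3.11.15, scipy 1.17.1 and edgeR 4.0.16 (TMM factors only). Values of some single genes are not reported here.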

Additional observations from a re-analysis of the deposited data

Results flagged for a closer look

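Of the genes past 1.5-fold in the monocytes, 2 were past 1.5-fold in the opposite direction in the C1q-high macrophages, and the difference between the classes was not tested. Lpl, lipoprotein lipase, had a log2 ratio of −0.83 in monocytes and 0.64 in macrophages, and Mmp12, macrophage elastase, −1.02 and 0.60. A single cell held 53.8% of the Mmp12 UMIs of the MWA monocytes. Among monocytes with over 5000 UMIs the log2 ratio of Mmp12 was 1.05. Intermediates were not searched in this way, and some genes also had the opposite sign there, among them Cmpk2, Rsad2, Ccl5, Ccl7 and Cxcl3.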

How the results depend on the processing

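With 1 library per group no test exists, and no replicate could be left out. No paired analysis was possible because each group has 1 library. Other limits on the gate, doublet removal, thinning, other scalings and other filters were tried, and 2 alternatives (cells with over 5000 UMIs, and leaving out the cell with most UMIs of a gene) were chosen after seeing the data. The cause of the changes below was not tested unless the setting itself gives it. The difference in share was −1.61 points at most 5000 UMIs per barcode and 2.16 points over 5000. The 165 higher and 81 lower genes became 275 and 145 over 5000 UMIs, 330 and 159 at a mean of at least 5 CPM, 2874 and 2584 with 1 UMI in all (more genes tested) and 15 and 11 at 2-fold. The lower genes were 123 with at least 1 UMI of Ly6c2 and 143 with totals without mitochondrial and ribosomal protein genes. The 13 higher interferon genes were 8 with at least 1 UMI of Ly6c2, 4 at most 5000 UMIs, 27 over 5000, 8 as a mean over cells and 3 at 2-fold.

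Of 147 genes with recomputed ratios, 63 had the opposite sign under at least 1 alternative, 43 of them at most 5000 UMIs per barcode. Among genes past 1.5-fold the log2 ratios with the opposite sign were as follows. Ctsk had −0.64 with a C1q sum below 5, −0.70 with at least 1 Ly6c2 UMI, −0.53 with the gate scaled to equal UMIs per cell, −0.63 with the gate after thinning to 3000 UMIs and −0.057 without the cell with most UMIs. At most 5000 UMIs gave −1.06 for Creb5, −1.16 for Ccl5, −0.89 for Ly6a, 0.11 for Fcrls and 0.35 for Lcn2. Ccl5 also had −0.081 with the gate scaled to equal UMIs per cell and −0.96 after thinning, and Gzma 0.81 after thinning. Fcrls had 0.48 with a monocyte sum of at least 10, Lpl 0.30 with at least 1 Ly6c2 UMI, Hsph1 −0.084 with the scaled gate and Mmp12 1.05 over 5000 UMIs. Printed genes under 1.5-fold also changed sign, and not all are listed here. At most 5000 UMIs gave −0.92 for Ifih1, −0.17 for Pvr, 0.60 for Socs1 and 0.17 for F13a1. The same setting gave 0.22 for Ccl2, 0.079 for Cxcl2 and −0.60 for Cd74. Over 5000 UMIs gave 0.17 for Slpi.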
